A study of Homo sapiens with 3 samples.

Results

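The genes described here encode 4 families of proteins that splice precursor messenger RNA. They were chosen by name, as every symbol starting with SRSF (SR proteins), HNRNP (heterogeneous nuclear ribonucleoproteins, hnRNPs), SNRP (proteins of the small nuclear ribonucleoproteins, snRNPs) or SF3 (splicing factors 3a and 3b) that the platform annotation gave as the only symbol of a probe set. This found 53 of the 19775 gene symbols read by such a probe set. Of the 53, 50 are protein-coding genes, namely 10 SR proteins, 19 hnRNPs, 12 snRNP proteins and 9 SF3 subunits. The other 3 are the divergent transcripts HNRNPD-DT and SNRPF-DT and the pseudogene HNRNPA3P1, which were kept apart. Signal entered the choice through a filter on mean log2 signal, described below, which left out dim probe sets. It entered again because, of the probe sets kept, the one with the highest mean log2 signal over the 3 arrays stood for each gene. Probe sets with several symbols, among them those annotated to SRSF2, SRSF9 and HNRNPH2, name no gene here.

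The cells were U2OS, a human osteosarcoma line, and RNA was taken 5 days after transduction with a retrovirus. There was 1 array for stable Set8b (labelled Set8_deltaPIP2, a mutant that resists the CRL4-Cdt2 ubiquitin ligase), 1 for wild-type Set8b (Wt-Set8b) and 1 for the empty vector (pMSCV-vector), so all 3 groups share the line, the virus and the time. Set8b is the enzyme that adds a single methyl group to histone H4 (H4K20). The transduced cells still carry their own Set8 gene, KMT5A. The 4 probe sets annotated to KMT5A lay between -0.76 and 0.90 on the log2 scale for stable Set8b over vector. For wild-type Set8b over vector they lay between 0.18 and 1.23. Whether they read RNA of the cells' own gene, of the introduced Set8b or of both was not tested, so these values are not the level of the cells' own gene. With 1 array per construct no difference has a replicate check, so no p-value is given, and precision is limited by having 3 arrays.

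Splicing is carried out by the spliceosome, which assembles anew on each intron. The U1 snRNP marks the start of the intron and the U2 snRNP, with its SF3A and SF3B complexes, binds the branch site near the end. Each of these particles carries a ring of Sm proteins around its RNA. SR proteins bind exons through RNA recognition motifs and recruit the spliceosome through tails rich in arginine and serine, whereas many hnRNPs bind introns and exons to block or redirect splice sites. Several SR and hnRNP genes limit their own levels through exons whose inclusion sends the messenger RNA to decay.

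The deposited values are linear probe-set intensities, with medians between 38.6 and 42.8 on the 3 arrays. They were quantile normalized, so that each array had the same distribution of signals, and are called signals below. A probe set was kept if its mean log2 signal reached the median of all probe sets, a signal of 37.0, and 12631 genes passed. The ratio of the 3′ to the 5′ actin control probe set, which grows with RNA breakdown, was 7.33 with stable Set8b, 7.56 with wild-type Set8b and 7.995 with vector, and that of GAPDH was 1.02, 1.12 and 1.03 in the same order. Of 8 mesenchymal and osteosarcoma markers 7 passed the filter, all but COL1A2. VIM (vimentin) read between 11123 and 13006 and SPARC between 5773 and 7644, while RUNX2 read between 540 and 894 and CDH11 between 150 and 367. For stable Set8b over vector 6 of the 7 lay above 0, with a median of 0.31 and values from -0.62 (RUNX2) to 1.54 (FN1). The leukocyte genes PTPRC and CD14 did not pass the filter, nor did the epithelial gene KRT5. CD3D and CD79A passed, with signals between 75.9 and 200.2, as did 3 of 5 epithelial markers. EPCAM read 169.1 with stable Set8b, 425 with wild-type Set8b and 431 with vector (-1.35 for stable over vector), while CDH1 and KRT14, with signals up to 111, were at 1.04 and 0.56. Their part in the results was not tested.

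Most splicing factor genes gave a lower signal with stable Set8b than with the empty vector, by a modest amount. Of the 50 coding genes 49 passed the filter, all but SNRPN, and 40 of these 49 lay below 0 on the log2 scale, where 50.3% of all genes did, and 9 lay above 0, where 49.6% did. Their median log2 difference was -0.38, against -0.0037 over all genes. At least 1.5-fold lower were 13 of the 49, against 14.6% of all genes, and 0 were at least 1.5-fold higher, against 14.5%. A difference of 2-fold was reached by 0 of the 49 in either direction, while 5.12% of all genes were at least 2-fold lower and 5.72% at least 2-fold higher. The differences ran from -0.97 (HNRNPA0) to 0.41 (SF3B6). With 1 array per construct these are values of 3 cultures, and the spread between cultures is unknown. RNA was taken from whole cultures, so fewer cells in a given state and less RNA per cell cannot be told apart.

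**Figure D1:**
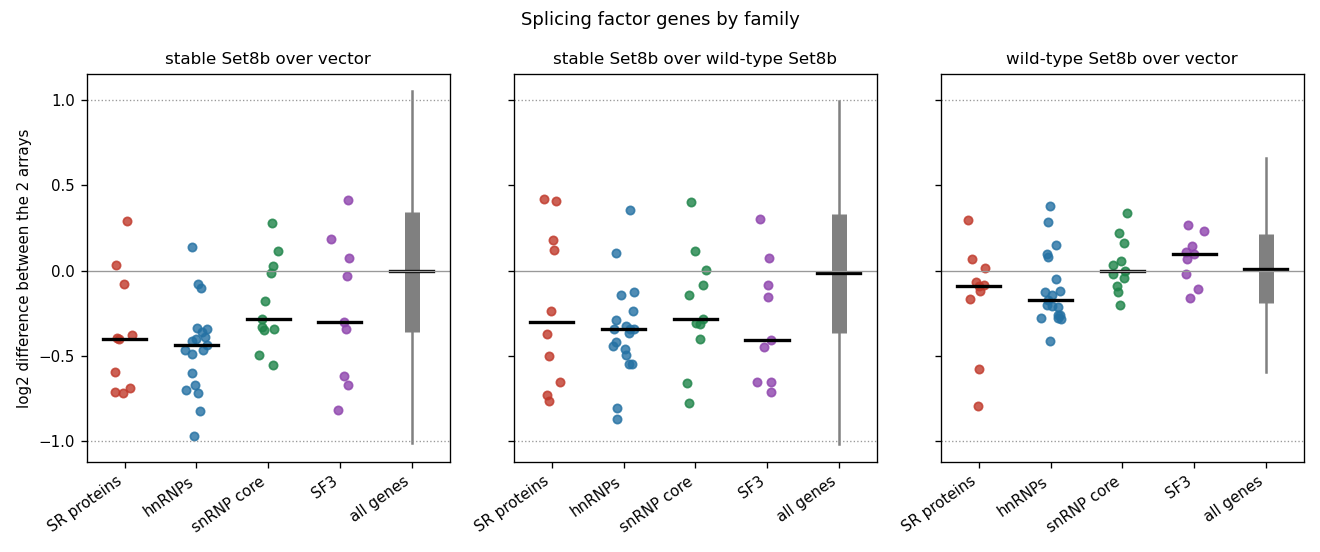
Log2 difference between 2 arrays (vertical axis) for each splicing factor gene, by family, in the 3 comparisons. Points are genes, black bars are medians, and the grey bar spans the middle 50% and the grey line the 5th to 95th percentile of all 12631 genes. In both comparisons of stable Set8b the 4 family medians lie below 0, and all points lie between the dotted lines at 2-fold.

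SR proteins had a median of -0.40 in this comparison, with 8 of 10 genes below 0 and 4 at least 1.5-fold lower. SRSF4, one of the longer SR proteins, had a signal of 1112 with stable Set8b, 1745 with wild-type Set8b and 1829.6 with vector, which puts stable Set8b at -0.72 over vector. SRSF3, the smallest of the classical SR proteins, read 4602 with stable Set8b, 7631 with wild-type Set8b and 7535 with vector (-0.71 for stable over vector). By these probe sets the stable Set8b array was the low one in both genes, and the other arrays were within 0.07 of each other on the log2 scale. Another probe set of SRSF3, nearly as bright, had wild-type Set8b at -0.24 over vector. All those of SRSF3 ran from -0.87 to 1.07 in that comparison, and the dimmer one of SRSF4 was at -0.37.

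SRSF7, an SR protein with a zinc knuckle, read 6274 with stable Set8b, 10629.8 with wild-type Set8b and 10116 with vector (-0.69). SRSF1, which binds exonic enhancers and can act as a proto-oncogene, read 4333 with stable Set8b, 6136 with wild-type Set8b and 6536 with vector (-0.59). By these probe sets stable Set8b alone was again low, and all 4 genes were at 0.61 to 0.66 of their vector signal. Over all their probe sets wild-type Set8b over vector ran from -0.34 to 0.07 for SRSF7 and from -0.37 to 0.22 for SRSF1.

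SRSF10, which turns into a general repressor of splicing when it loses its phosphates, was at -0.40 with 1498 for stable Set8b against 1976 with vector, and wild-type Set8b lay between them at 1761. SRSF6 and SRSF11 had another order of arrays. SRSF6 read 803 with stable Set8b, 710.2 with wild-type Set8b and 1057 with vector, and SRSF11 read 2597 with stable Set8b, 1943 with wild-type Set8b and 3368 with vector. For both, wild-type Set8b was the lowest array, at -0.57 and -0.79 over vector, while stable Set8b was at -0.40 and -0.38. Another probe set of each gave a different order, with wild-type Set8b over vector at 0.05 for SRSF6 and at -0.04 for SRSF11, where stable Set8b was the lowest array in both. A further dim probe set of SRSF11 again had wild-type Set8b lowest, with 159.8 for stable Set8b, 89.8 for wild-type Set8b and 164.1 for vector. The 3 genes not clearly lower were SRSF5 at -0.08, SRSF8 at 0.03 and SRSF12 at 0.29. SRSF5 read 3648 with stable Set8b, 4721 with wild-type Set8b and 3843 with vector. Its other probe set, nearly as bright, had stable Set8b highest, with 3389, against 2921 for wild-type Set8b and 2739 for vector (0.31). SRSF8 read 1097 with stable Set8b, 1010.5 with wild-type Set8b and 1072 with vector, and its probe sets ran from -0.57 to 0.37. SRSF12 was dim on all arrays, with 48.0 for stable Set8b, 36.1 for wild-type Set8b and 39.2 for vector, close to the filter.

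**Figure D2:**
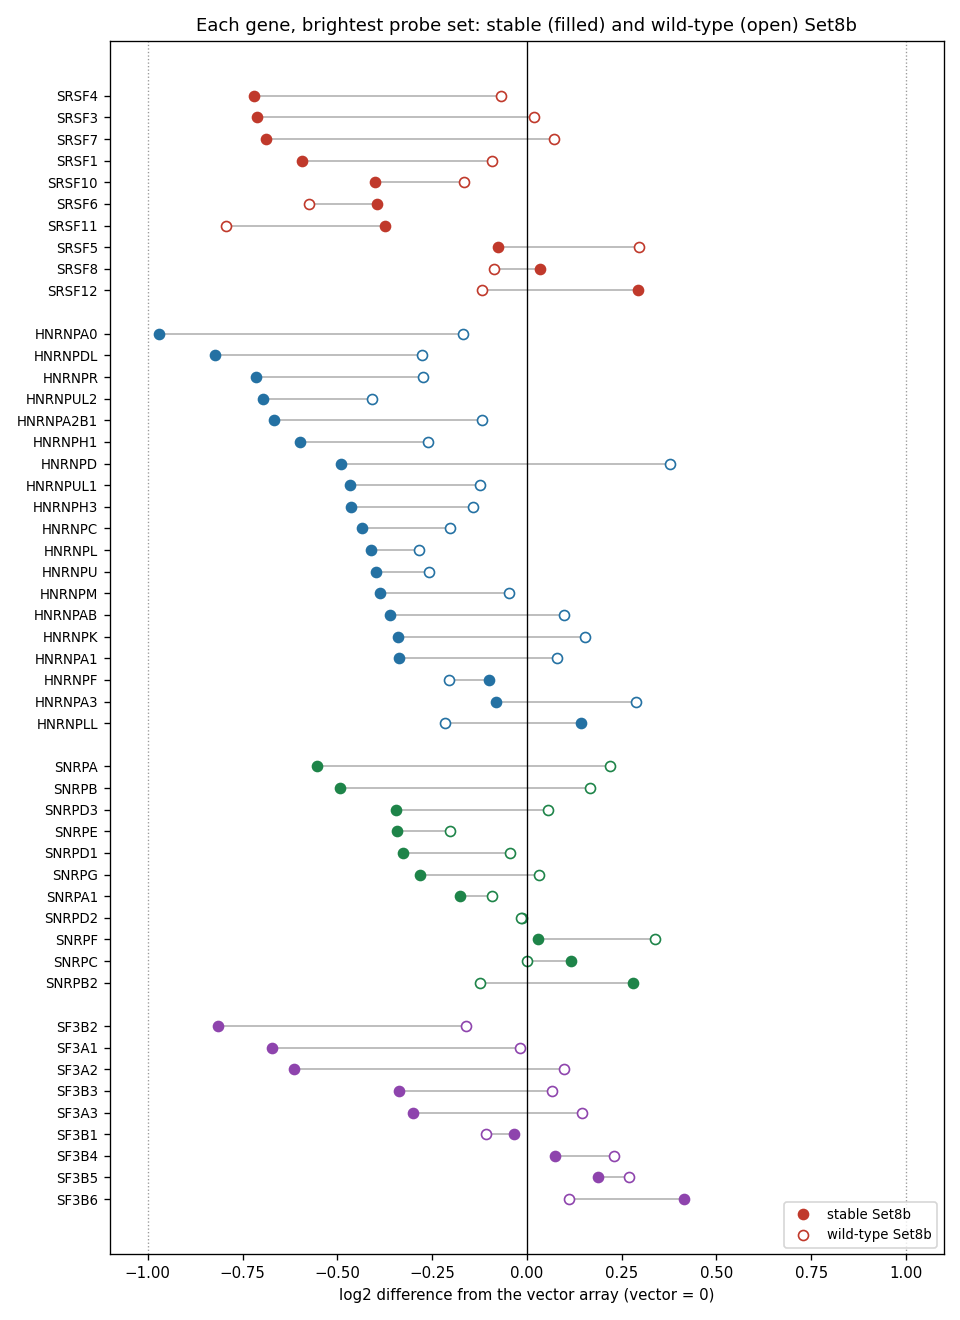
Log2 difference from the vector array (horizontal axis) of each of the 49 genes by its brightest probe set, with filled circles for stable Set8b, open circles for wild-type Set8b and colours for the families. Most filled circles lie left of 0, down to -0.97 for HNRNPA0, while the open circles spread around 0 from -0.79 (SRSF11) to 0.38 (HNRNPD).

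The hnRNPs had the lowest family median, -0.44, with 18 of 19 genes below 0 and 6 at least 1.5-fold lower with stable Set8b. HNRNPA0, a single-exon gene whose product binds AU-rich messenger RNAs and is a target of stress kinases, read 2110.2 with stable Set8b, 3681 with wild-type Set8b and 4137 with vector. Its log2 difference of -0.97, or 0.510 of the vector signal, was the lowest of all 49. Its other probe sets were at -0.40 and -0.41, so its place at the bottom depends on the probe set.

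HNRNPDL, a close relative of HNRNPD, read 3253 with stable Set8b, 4746 with wild-type Set8b and 5751 with vector (-0.82). HNRNPR read 6576 with stable Set8b, 8918 with wild-type Set8b and 10788 with vector (-0.71). HNRNPUL2, which has a role at DNA breaks, read 291 with stable Set8b, 355 with wild-type Set8b and 472 with vector (-0.70), and 1 of its 2 probe sets was at -0.03. HNRNPA2B1, read by a bright probe set, gave 10575 with stable Set8b, 15466 with wild-type Set8b and 16799 with vector (-0.67). By these probe sets the order was the same in all 4 genes, with stable Set8b lowest and vector highest. Some other probe sets had wild-type Set8b above vector, at 0.20 and 0.34 for HNRNPR, 0.76 for HNRNPUL2 and 0.03 for HNRNPDL. Those of HNRNPA2B1 did not.

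HNRNPH1, which binds runs of guanines, completed the 6 at -0.60 (4669 with stable Set8b, 5909 with wild-type Set8b and 7076 with vector). HNRNPD, also known as AUF1, destabilises AU-rich messenger RNAs, and read 4928 with stable Set8b, 8989 with wild-type Set8b and 6916 with vector. It was at -0.49 over vector and at -0.87 over wild-type Set8b. Another of its probe sets, about as bright, read 5844 with stable Set8b, 5135 with wild-type Set8b and 7315 with vector, so stable over wild-type Set8b was above 0 there, at 0.19. The next 6 genes lay between -0.47 and -0.39. HNRNPUL1 read 2485 with stable Set8b, 3150.3 with wild-type Set8b and 3434 with vector (-0.47), and HNRNPH3 read 1828 with stable Set8b, 2285 with wild-type Set8b and 2521 with vector (-0.46). HNRNPC, which binds runs of uridines, read 5558 with stable Set8b, 6537 with wild-type Set8b and 7519 with vector (-0.44). HNRNPL, which binds CA repeats, read 1198 with stable Set8b, 1308 with wild-type Set8b and 1593 with vector (-0.41). By these probe sets stable Set8b was the lowest array and vector the highest in these genes, as in the 2 that follow. Some other probe sets had wild-type Set8b above vector, by up to 0.17 for HNRNPUL1, 0.09 for HNRNPH3, 0.20 for HNRNPC and 0.05 for HNRNPM. Those of HNRNPL and HNRNPU did not. HNRNPU, which also binds chromatin, read 7519 with stable Set8b, 8287 with wild-type Set8b and 9915 with vector (-0.40), and HNRNPM read 4391 with stable Set8b, 5556 with wild-type Set8b and 5745 with vector (-0.39).

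By their brightest probe sets the next 3 hnRNPs had wild-type Set8b as the highest array. HNRNPAB read 7631 with stable Set8b, 10489 with wild-type Set8b and 9807 with vector (-0.36). HNRNPK, which binds runs of cytosines and acts with p53 in transcription, was at -0.34 (6057 with stable Set8b, 8519 with wild-type Set8b and 7662 with vector). Its other probe set had wild-type Set8b lowest, with 4497 for stable Set8b, 3850 for wild-type Set8b and 4746 for vector (-0.08). HNRNPA1, a repressor of many exons, was at -0.34 (3591 with stable Set8b, 4790.5 with wild-type Set8b and 4533 with vector). Vector was highest by another of its probe sets, at -0.79, and by a brighter one shared with HNRNPA1P10, at -0.32. Its dimmest one, at -0.007, again had wild-type Set8b highest.

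The remaining hnRNPs were close to vector by their brightest probe sets. HNRNPF, the nearest relative of HNRNPH1, was at -0.10 with 719 for stable Set8b, 667 for wild-type Set8b and 769.6 for vector. HNRNPA3 was at -0.08 and read 846 with stable Set8b, 1092 with wild-type Set8b and 894 with vector, but the dimmer ones read it at -0.53 and -0.77. The 3 probe sets annotated to both HNRNPA3 and its pseudogene HNRNPA3P1 were at -0.64, -0.49 and -0.37, the first of them at 6428 with stable Set8b, 8361 with wild-type Set8b and 10008 with vector. HNRNPLL, known for silencing exons of the leukocyte gene PTPRC in T cells, was the one hnRNP above 0, at 0.14 (1120.4 with stable Set8b, 875 with wild-type Set8b and 1016 with vector). Its 4 probe sets ran from -0.62 to 0.74, so its direction was not settled. HNRNPD-DT, the divergent transcript next to HNRNPD, read 81.4 with stable Set8b, 95.5 with wild-type Set8b and 157.9 with vector (-0.96).

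Promoters were set beside the values of all 4 families, because genes of the cell division programme often carry binding letters of E2F factors. The letters searched were TTTGGCGC, TTTCGCGC, TTTGCCGC and TTTCCCGC, on both strands, in the 300 bases from 250 before to 50 after the start of each gene in RefSeq (GRCh38.p14). Of the 53 symbols, 46 of the 49 coding genes past the filter had such a window, and SF3B3, HNRNPA1 and SNRPD1 did not. A match was found in 7 of these 46 (15.2%), against 6.63% of the 10255 genes past the filter with a window and 3.31% of all 35116 windows. The 7 were HNRNPA3, HNRNPK, HNRNPLL, HNRNPUL1, SF3B1, SNRPB and SRSF10. Of the 13 genes at least 1.5-fold lower with stable Set8b 0 held a match, and the median log2 difference was -0.34 for the 7 genes with one and -0.40 for the 39 without.

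The upstream 250 bases are shown for both genes with the lowest differences, HNRNPA0 and HNRNPDL, and for SRSF10, the one SR gene with a match, picked after the values were seen. They lie at chr5:137754364-137754613 (HNRNPA0), chr4:82430463-82430712 (HNRNPDL, the farther upstream of its 2 windows) and chr1:23980328-23980577 (SRSF10) of GRCh38.p14, all on the minus strand, and capitals mark the match, which starts 119 bases before the SRSF10 start and reads as the reverse complement of TTTCCCGC.
HNRNPA0: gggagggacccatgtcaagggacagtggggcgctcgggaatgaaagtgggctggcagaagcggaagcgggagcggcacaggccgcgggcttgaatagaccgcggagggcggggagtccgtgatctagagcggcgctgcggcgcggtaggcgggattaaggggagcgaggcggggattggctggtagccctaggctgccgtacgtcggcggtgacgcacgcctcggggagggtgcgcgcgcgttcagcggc
HNRNPDL: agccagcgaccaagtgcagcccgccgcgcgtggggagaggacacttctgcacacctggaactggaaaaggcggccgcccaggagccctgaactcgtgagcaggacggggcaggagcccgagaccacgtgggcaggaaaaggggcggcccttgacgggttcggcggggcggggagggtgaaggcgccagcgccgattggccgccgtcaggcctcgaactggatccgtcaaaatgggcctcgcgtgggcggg
SRSF10: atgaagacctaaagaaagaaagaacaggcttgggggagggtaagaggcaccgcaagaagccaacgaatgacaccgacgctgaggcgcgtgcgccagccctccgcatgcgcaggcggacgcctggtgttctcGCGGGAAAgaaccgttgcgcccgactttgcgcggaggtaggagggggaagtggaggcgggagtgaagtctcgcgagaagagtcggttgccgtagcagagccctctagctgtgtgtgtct
A match is a string of letters and not a shown binding site, and a window without one says only that these letters are not in it.

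The snRNP proteins had a median of -0.28, with 8 of 11 genes below 0 and 0 past 1.5-fold. SNRPA, the U1 snRNP protein that binds a loop of U1 RNA, read 1634 with stable Set8b, 2795 with wild-type Set8b and 2401 with vector (-0.55). SNRPB, which encodes the Sm proteins B and B′, read 7305 with stable Set8b, 11538 with wild-type Set8b and 10289 with vector (-0.49). For both, wild-type Set8b was the highest array, and stable over wild-type Set8b was at -0.77 for SNRPA and -0.66 for SNRPB.

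Of the other Sm ring genes, SNRPD3 was at -0.35 (9906 with stable Set8b, 13071 with wild-type Set8b and 12587 with vector), SNRPE at -0.34 (11528 with stable Set8b, 12708 with wild-type Set8b and 14629 with vector), SNRPD1 at -0.33 (3526 with stable Set8b, 4295 with wild-type Set8b and 4425 with vector) and SNRPG at -0.28 (15854 with stable Set8b, 19712 with wild-type Set8b and 19283 with vector). SNRPD2 and SNRPF did not follow them. SNRPD2 read 23772 with stable Set8b, 23716 with wild-type Set8b and 23988 with vector (-0.01). SNRPF read 9445 with stable Set8b, 11696 with wild-type Set8b and 9257 with vector (0.03). The 7 Sm ring genes lay between -0.49 and 0.03 although their proteins are found in 1 ring.

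The proteins particular to the U1 and U2 particles went both ways. SNRPC, which helps the U1 snRNP hold the splice site, was at 0.12 (3590.3 with stable Set8b, 3314 with wild-type Set8b and 3314 with vector), against -0.55 for SNRPA of the same particle. In the U2 particle SNRPA1 was at -0.18 (3227 with stable Set8b, 3422 with wild-type Set8b and 3644 with vector), and its partner SNRPB2 was at 0.28 (6221 with stable Set8b, 4703 with wild-type Set8b and 5122 with vector), with its other probe set at -0.21. SNRPN, an imprinted gene that encodes an Sm protein close to SNRPB, was read as a single symbol only by a probe set below the filter, with 28.5 for stable Set8b, 32.1 for wild-type Set8b and 15.9 for vector. A far brighter probe set, shared with the symbol SNURF, read 2495 with stable Set8b, 2600 with wild-type Set8b and 2077 with vector.

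The SF3 subunits, which hold the U2 snRNP at the branch site, had a median of -0.30, with 6 of 9 below 0 and 3 at least 1.5-fold lower. SF3B2 read 1426 with stable Set8b, 2244 with wild-type Set8b and 2511 with vector (-0.82). SF3A1, the largest SF3A subunit, read 1538 with stable Set8b, 2421 with wild-type Set8b and 2452 with vector (-0.67), but another of its probe sets, nearly as bright, was at -0.09. SF3A2 read 402 with stable Set8b, 659 with wild-type Set8b and 615 with vector (-0.61, and -0.56 by its other probe set). By their brightest probe sets stable Set8b was the lowest array in these 3 genes.

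SF3B3 was at -0.34 (1524 with stable Set8b, 2017 with wild-type Set8b and 1927 with vector) and SF3A3 at -0.30 (979 with stable Set8b, 1334 with wild-type Set8b and 1206 with vector). SF3B1, the scaffold that closes around the branch site and the target of splicing inhibitors, was at -0.03 (3191 with stable Set8b, 3027 with wild-type Set8b and 3264 with vector), with 5 probe sets between -0.42 and 0.09. SF3B4 was at 0.07 (1107 with stable Set8b, 1233 with wild-type Set8b and 1051 with vector) and SF3B5 at 0.19 (8612 with stable Set8b, 9115 with wild-type Set8b and 7560 with vector). SF3B6, the small subunit that contacts the branch-site adenosine, was the highest of the 49 at 0.41, with 13418 for stable Set8b, 10885 for wild-type Set8b and 10072 for vector.

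The probe sets of single genes were compared because a gene read at several places gives the only repeat measurement on these arrays. The 49 genes had 134 probe sets past the filter, of which 117 lay below 0 for stable Set8b over vector, with a median of -0.42. Of the 36 genes with over 1 such probe set, 28 had all of them below 0, 1 (SF3B6) had all above 0, and 7 had them on both sides. By the brightest probe set 50.3% of all genes lay below 0. The same counts over the probe sets of all genes were not made, so these have no matched share beside them. The SD between probe sets of 1 gene was 0.33, against 0.44 over all genes, and is close in size to the median difference itself. It does not hold the spread between cultures. The brightest probe set ended in _x_at, which can also read related sequences, for 10 genes and in _s_at, which reads several transcripts, for 23.

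Past 2-fold were 5 of the 134 probe sets on the lower side and 1 on the higher, none of them the brightest of its gene. By the brightest probe set 5.12% of all genes were at least 2-fold lower and 5.72% at least 2-fold higher. The lowest value was in HNRNPH1, where the dimmest one past the filter read 56.6 with stable Set8b, 175.0 with wild-type Set8b and 174.5 with vector (-1.63), while the brighter ones were at -0.60 and -0.67. For HNRNPD, the dimmest read 44.0 with stable Set8b, 82.8 with wild-type Set8b and 113.9 with vector (-1.37), and the other 5 ran from -0.96 to -0.32. For SRSF1, a dim one read 118.0 with stable Set8b, 289 with wild-type Set8b and 247 with vector (-1.07), and the other 6 ran from -0.81 to -0.17.

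For SRSF10, one read 67.0 with stable Set8b, 90.9 with wild-type Set8b and 141.0 with vector (-1.07), and for HNRNPDL one read 1504 with stable Set8b, 1876 with wild-type Set8b and 3253 with vector (-1.11). For SF3B6, the higher one read 56.1 with stable Set8b, 49.9 with wild-type Set8b and 18.3 with vector (1.61), and its vector signal was below the filter level. Other genes whose probe sets differed by over 1 log2 unit were HNRNPM, from -0.47 to 0.59, and HNRNPLL. Which transcript forms these probe sets read was not analysed here.

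**Figure D3:**
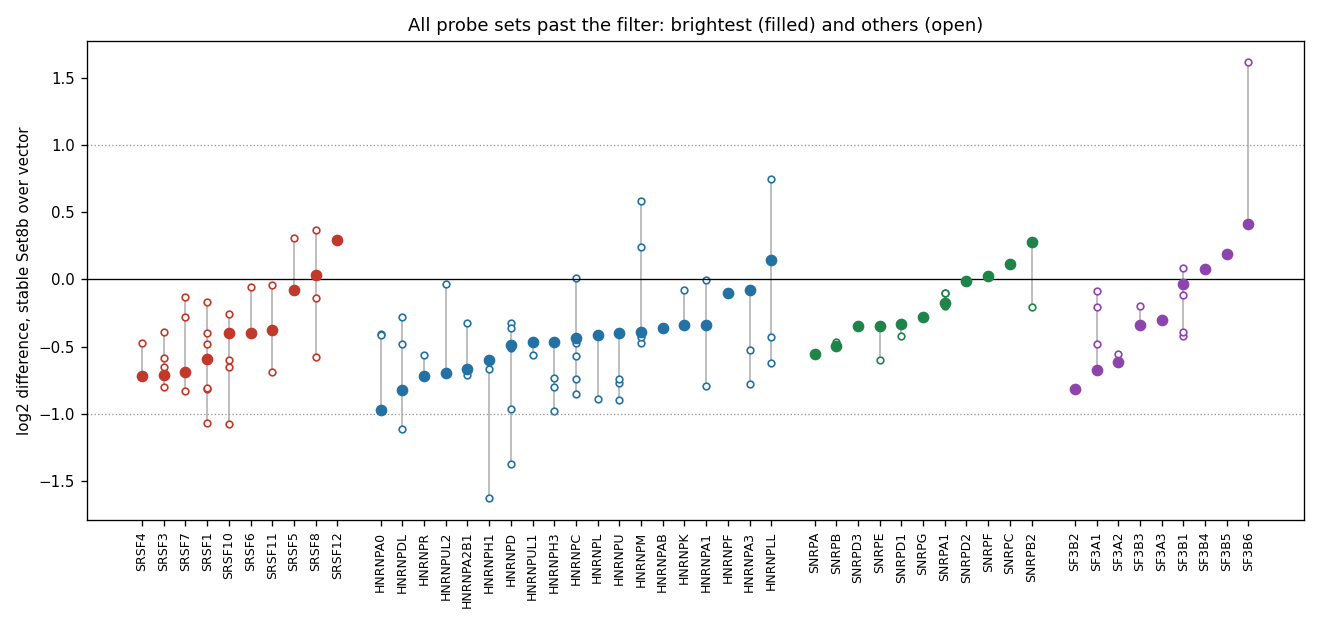
Log2 difference of stable Set8b over vector (vertical axis) for every probe set past the filter of the 49 genes, filled for the brightest probe set of a gene and open for the others, with dotted lines at 2-fold. The lowest open circle belongs to HNRNPH1 at -1.63 and the highest to SF3B6 at 1.61, and 117 of the 134 circles lie below 0.

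The splicing factor genes are bright. All but 1 of the 49, SRSF12, lay in the brightest 25% of probe sets, where 51% of genes were below 0 and 12.3% at least 1.5-fold lower. At a mean log2 signal of 11 or more, a level chosen after the data were seen, there were 34 of the genes, with a median of -0.38, 29 below 0 and 9 at least 1.5-fold lower. The 1525 other genes as bright had a median of -0.0011, with 50.2% below 0 and 8.66% at least 1.5-fold lower. No test of this gap is given.

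**Figure D4:**
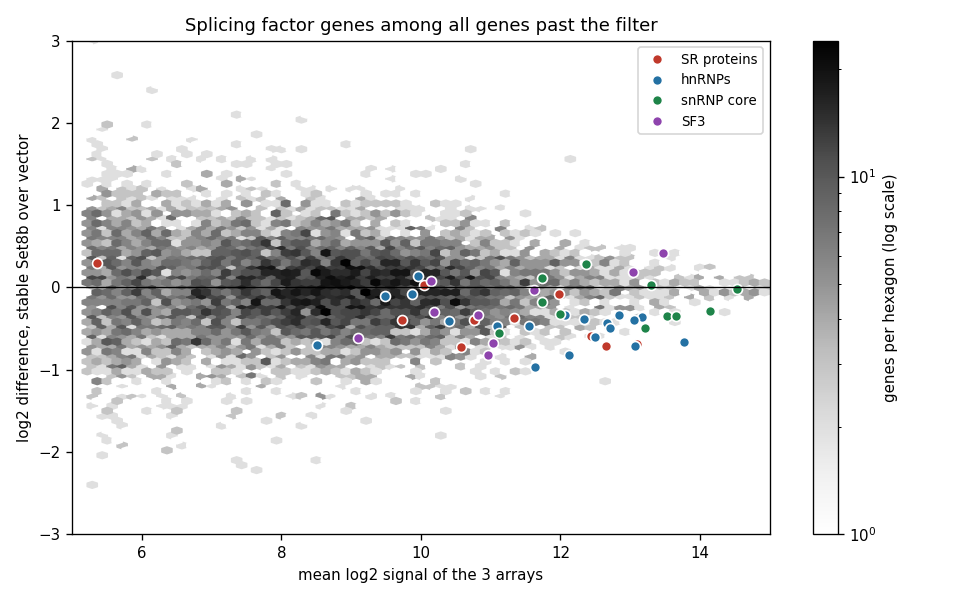
Log2 difference of stable Set8b over vector (vertical axis) against the mean log2 signal of the 3 arrays (horizontal axis), with all genes past the filter in grey (log colour scale) and the 49 splicing factor genes as coloured points. The median of the other genes at a signal of 11 or more is -0.0011, while 29 of the 34 coloured points at a signal of 11 or more lie below 0.

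Against wild-type Set8b, the comparison that sets the stable form beside the degradable one and uses the same stable Set8b array, 38 of 49 genes lay below 0, where 51.2% of all genes did, and the median was -0.34 against -0.016. At least 1.5-fold lower were 10, against 15% of all genes, and 0 were at least 1.5-fold higher, against 13.7%. At 2-fold there were 0 in either direction, against 5.23% of all genes lower and 4.96% higher. The family medians were -0.40 for SF3 subunits, -0.34 for hnRNPs, -0.30 for SR proteins and -0.28 for snRNP proteins. By the brightest probe sets the lowest genes were HNRNPD at -0.87, with its probe sets from -0.91 to 0.19, HNRNPA0 at -0.80, SNRPA at -0.77, SRSF7 at -0.76 and SRSF3 at -0.73. The highest were SRSF11 at 0.42, SRSF12 at 0.41 and SNRPB2 at 0.40.

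The SR family was split here, with 6 genes below 0 and 4 above, and its median was 0.015 when the dimmest probe set stood for each gene. By the brightest probe sets SRSF1, SRSF3, SRSF4 and SRSF7 were between -0.76 and -0.50, and SRSF6, SRSF8, SRSF11 and SRSF12 were between 0.12 and 0.42. However, SRSF6 and SRSF11 each had another probe set below 0, at -0.10 and -0.65, while a further one of SRSF11 was at 0.83. The other probe sets of SRSF8 were at -0.58, -0.34 and 0.11. A dim probe set of SRSF3 read 74.1 with stable Set8b, 204 with wild-type Set8b and 97.2 with vector, and so was at -1.46 over wild-type Set8b and -0.39 over vector.

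Wild-type Set8b over vector gave small differences. Of the 49 genes 30 lay below 0, against 48.7% of all genes, with a median of -0.07 against 0.0086. Past 1.5-fold was 1 gene, SRSF11 at -0.79, on the lower side, against 5.11% of all genes, and 0 on the higher side, against 6.6%. None reached 2-fold (1.05% of all genes lower and 1.67% higher). The hnRNPs had a median of -0.17 with 14 of 19 below 0, the SR proteins -0.09 with 7 of 10, the snRNP proteins -0.00036 with 6 of 11 and the SF3 subunits 0.10 with 3 of 9. The highest genes were HNRNPD at 0.38, SNRPF at 0.34 and SRSF5 at 0.30, but 2 other bright probe sets of HNRNPD were at -0.51 and -0.48. This comparison shares the vector array with the one of stable Set8b over vector.

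The rest of the splicing machinery was described with 7 further lists, of which 146 of 156 genes were measured. For stable Set8b over vector their joint median was -0.25, 107 of 146 lay below 0, 14 were at least 1.5-fold lower and 2 at least 1.5-fold higher. Of all genes 50.3% lay below 0, 14.6% were at least 1.5-fold lower and 14.5% at least 1.5-fold higher, so the lists held a smaller share of genes past 1.5-fold in either direction than all genes did. At 2-fold there was 1 gene lower (GEMIN4), against 5.12% of all genes, and 1 higher (MATR3), against 5.72%. Kinases, import factors and relatives of SR proteins had a median of -0.38, with 18 of 21 below 0. SCAF1 was at -0.74 with a stable Set8b signal of 38.4, and RNPS1, which links splicing to messenger RNA decay, at -0.61. The highest were SCAF11 at 0.19 and PNN at 0.36, but the 5 probe sets of PNN ran from -0.77 to 0.36.

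U2 recruitment and branch-site genes had a median of -0.37, with 13 of 16 below 0. SF1, which first binds the branch site, was at -0.74 (and at -0.003 by its other probe set), U2AF1L4 was at -0.66, DHX15 at 0.07 and U2AF2, which binds the polypyrimidine tract, at 0.25. PHF5A, a further SF3B subunit that the name rule does not catch, was at -0.61 (2938 with stable Set8b, 5015 with wild-type Set8b and 4473 with vector). The LSM ring genes, relatives of the Sm proteins, had a median of -0.43 with 8 of 10 below 0, led by LSM7 at -0.56 and LSM2 at -0.54, with LSM1 at 0.09 and LSM10, a subunit of the U7 snRNP that processes histone messenger RNA, at 0.33.

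Proteins of the U1, tri-snRNP and minor particles had a median of -0.20 with 20 of 29 below 0, from SNRNP40 at -0.60 and SNRNP70 at -0.54 to ZRSR2 at 0.31 and SNU13 at 0.34. The other probe set of SNU13 was at -0.45. Prp19 complex and catalytic-step genes had a median of -0.11 with 12 of 22 below 0, from PPIL1 at -0.66 and CDC5L at -0.65 to DHX38 at 0.45 and the dim XAB2 at 0.68 (94.0 with stable Set8b and 58.7 with vector). The snRNP assembly genes had a median of -0.12 with 7 of 12 below 0. In that list GEMIN4, part of the SMN complex that loads Sm rings, was at -1.06 (333 with stable Set8b, 729 with wild-type Set8b and 696.5 with vector). Its other probe set was at -0.58. GEMIN8 was at -0.94 by a dim probe set (70.1 with stable Set8b and 134.1 with vector) and at -0.19 by its other one. STRAP and WDR77 were both at 0.20. COIL, the marker protein of Cajal bodies, was at -0.89.

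Other splicing regulators had a median of -0.26 with 29 of 36 below 0. KHDRBS1 (Sam68) was at -0.83, though a dimmer probe set of it was at 1.58, and TIA1 was at -0.73 with 6 probe sets from -1.28 to -0.28. The highest were RBM38, a p53 target, at 0.39 and MATR3 at 1.21, by a dim probe set (156.0 with stable Set8b, 53.6 with wild-type Set8b and 67.4 with vector). The same arrays differed much more in cell division genes, 15 of 15 of which lay below 0 with a median of -1.11 against vector, and 8 of which were at least 2-fold lower, against 50.3% (below 0) and 5.12% (at least 2-fold lower) of all genes. MKI67, the proliferation marker, was at -1.68 and AURKB at -1.86. Their part in the lower splicing factor signals was not tested.

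**Figure D5:**
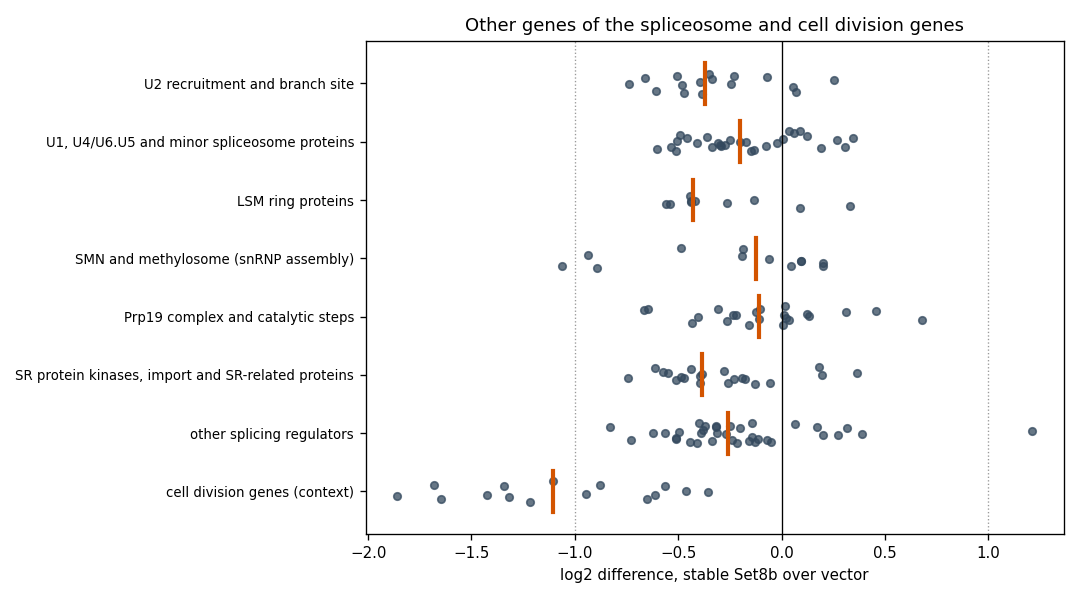
Log2 difference of stable Set8b over vector (horizontal axis) for the genes of 7 further splicing lists and of the cell division list, with orange bars at the list medians and dotted lines at 2-fold. The splicing lists have medians between -0.43 and -0.11, and the cell division list has -1.11.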

How the data were processed

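Expression was measured on 3 Affymetrix arrays of U2OS cells, 1 per construct, from Trizol RNA labelled with biotin, per the labels' protocols. The authors deposited linear probe-set intensity values, 54675 per array. No label or header names the software behind them, and each array has the same trimmed mean of 250.0 (2% at each end). Here 62 control probe sets were left out. The log2 medians of the deposited intensities spanned 0.149, over the 0.1 allowed, so the arrays were quantile normalized, then raised to at least 7.7, their 20th percentile, before log2 was taken. The filter kept probe sets whose average log2 reached the median of all (a signal of 37.0). Quantile normalization removes any overall shift between arrays. Genes were named from 41091 probe sets with 1 symbol in the platform annotation, and all 53 splicing symbols matched the RefSeq table of GRCh38.p14. Sequences are from RefSeq, and no protein sequence was analysed here.

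Because each construct has 1 array, no test was made. Differences of log2 signals are given, beside the same over all genes. The members, lists, thresholds and tests were chosen with earlier results of these data known. Named with all values were, per family, the 4 lowest and 3 highest genes for stable Set8b over vector, the brightest gene and any gene at least 2-fold different, and, from each other list, the 2 lowest and 2 highest. Family members whose probe sets differ by over 1 log2 unit have their range given. Every member could be named. PHF5A, COIL, MKI67 and AURKB were named after their values were seen. Alternatives tried were unnormalized values, centring on array medians, other floors, filters and probe set choices, and thresholds of 1.5-fold and 3-fold. Steps were tested on simulated data with known shifts. Python 3.11.15, numpy 2.4.6, pandas 2.3.3 and matplotlib 3.10.9 were used.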

Additional observations from a re-analysis of the deposited data

Results flagged for a closer look

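Probe sets that the annotation gives several symbols were left out of the comparisons, and 25 of them list a splicing factor symbol. Of the 19 past the filter 13 lay below 0 for stable Set8b over vector, with a median of -0.37. Of all genes 50.3% lay below 0 by the brightest probe set. Several of the 19 probe sets share a symbol, such as SRSF2, HNRNPA3 or SNRPN, so they do not stand for 19 separate genes. One of them, annotated with the 2 symbols SNURF and SNRPN, stood out as a signal in data not used, at 1.89. It read 102.6 with stable Set8b, 71.1 with wild-type Set8b and 27.7 with vector. Its vector signal was below the filter level of 37.0. The 2 brighter probe sets with the same symbols were at 0.26 (2495 with stable Set8b and 2077 with vector) and 0.04 (1363 with stable Set8b and 1328 with vector).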

How the results depend on the processing

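No paired analysis was possible because each construct has 1 array. The 4 family medians of stable Set8b over vector stayed below 0 in all 40 values under 10 alternatives, between -0.59 and -0.14. The order of the families depended on the setting, apart from the hnRNPs, which had the lowest median in each of the 10. The snRNP median lay below that of SF3 with deposited or centred values, and also by the mean over probe sets and by the dimmest probe set. The SR median was the highest by the dimmest probe set. Centring the arrays on their medians moved the median of all genes to -0.11 and the family medians to -0.51 (SR proteins), -0.59 (hnRNPs), -0.49 (snRNP proteins) and -0.42 (SF3). Over all 49 genes the gap to all genes was then -0.44, and the gap to the brightest 25% of genes was -0.38. Centring moved wild-type Set8b over vector to -0.22 (SR), -0.34 (hnRNPs) and -0.055 (SF3), where the median of all genes was -0.12. It also moved the snRNP median of stable over wild-type Set8b to -0.44. Values as deposited gave snRNP medians of -0.39 (over vector), -0.48 (stable over wild-type) and 0.16 for wild-type Set8b over vector. HNRNPA0 was the 1 gene at least 2-fold lower than vector under either of these scalings, against 0 with quantile normalization.

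By the dimmest probe set the SR median was -0.14 (over vector), 0.015 (stable over wild-type), a change of sign, and -0.28 for wild-type Set8b over vector. The hnRNPs were then at -0.46 for stable over wild-type Set8b and -0.067 for wild-type Set8b over vector, and SF3 was at -0.27 for stable over wild-type Set8b. This choice put 4 genes past 2-fold for stable Set8b over vector (3 lower), 1 for stable over wild-type Set8b and 1 for wild-type Set8b over vector. The mean over probe sets gave SF3 -0.28 for stable over wild-type Set8b and 1 gene past 2-fold over vector, SF3B6 at 1.01. Without _x_at and _s_at probe sets the hnRNPs were at -0.57 against vector and the SR proteins at -0.42 for stable over wild-type Set8b, and 1 gene passed 2-fold for stable over wild-type and 1 for wild-type over vector, SRSF3 at -1.46 and 1.07. With no filter 1 gene passed 2-fold for wild-type Set8b over vector, SNRPN at 1.02 by its dim single-symbol probe set. At 1.5-fold the counts were 13, 10 and 1 for the 3 comparisons, and at 3-fold they were 0. Of 882 values of 30 single genes under the alternatives, 37 moved by over 0.44, the SD between probe sets. That cutoff is larger in size than the median difference of the 49 genes from vector (-0.38), so a gene could change sign and not be counted. SRSF5 did so, at -0.08 by its brightest and 0.31 by its dimmest probe set past the filter. With 1 array per construct no replicate could be left out. The cause of these changes was not tested.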
